A study of Arabidopsis thaliana with 18 samples.

Results

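The SAUR (SMALL AUXIN UP RNA) genes described here are 41 loci of Arabidopsis thaliana, taken by locus from a list of SAUR genes tied to cell expansion, out of 32833 genes in the count table. All 41 were in the table. RNA had been made from wild-type (WT) hypocotyls and those of hy1, a mutant of LONG HYPOCOTYL 1, taken from darkness (0 h), or 12 h or 24 h into light. Each of these 6 groups has 3 libraries. The labels name neither the accession, nor the hy1 allele, nor the age of the seedlings, and the titles of the WT samples carry the word mock. The design asks how light changes the hypocotyl transcriptome, and how that change differs in hy1, in a study of adventitious roots. No group kept in darkness to 12 h or 24 h was analysed here, so light cannot be told apart from age or time of day. Separate plantings are not named for the replicates, so p-values measure the spread between these libraries, which may be technical.

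SAUR genes are short, mostly without introns, and many are switched on within minutes of auxin treatment. SAUR proteins of the SAUR19 type bind and inhibit D-clade type 2C protein phosphatases (PP2C.D), which otherwise remove an activating phosphate from plasma membrane H+-ATPases. With the phosphatases inhibited the pumps acidify the wall and cells expand, and in dark-grown hypocotyls this route serves fast elongation. Phytochrome-interacting factors (PIFs), brassinosteroid-activated factors and auxin response factors (ARFs) activate many SAUR genes, and phytochrome removes PIFs in light. HY1 is a plastid heme oxygenase. Its product biliverdin is turned into the phytochrome chromophore, and hy1 seedlings therefore have little working phytochrome.

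Of the 41 genes, 31 lie in 6 chromosomal clusters and 10 stand alone. SAUR19 (AT5G18010) to SAUR24 (AT5G18080) form a cluster of 6 at chr5:5962773-5984308 (TAIR10, as all positions here), SAUR61 (AT1G29420) to SAUR68 a cluster of 8 at chr1:10301377-10323239, and SAUR26 (AT3G03850) to SAUR29 (AT3G03820) a cluster of 4 at chr3:976715-983768. Chromosome 4 holds a cluster of 6 at chr4:16582183-16599568 (SAUR50, AT4G34760, and SAUR1 to SAUR5) and one of 4 at chr4:18121526-18131284 (SAUR13 to SAUR16, AT4G38860). SAUR7 (AT2G21200), SAUR6 (AT2G21210) and SAUR12 lie at chr2:9083906-9090052. Each of the 41 has 1 coding exon in the RefSeq annotation, and their predicted proteins have 86 to 186 residues, with a median of 105. The locus AT1G29510 is called SAUR67 and AT1G29490 SAUR68 here, although the annotation also gives the symbol SAUR68 to the former.

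The coding sequences of the chromosome 5 cluster are the most alike, with 87.7% to 95.2% of bases identical between pairs, against 45.4% to 89.3% in the chromosome 1 cluster. Their first 57 coding bases (RefSeq, TAIR10.1, coding strand) are printed because such likeness decides how far reads can be assigned to 1 gene, with capitals at bases that differ from the commonest base of the 6.
SAUR19: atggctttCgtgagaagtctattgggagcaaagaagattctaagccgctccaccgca
SAUR20: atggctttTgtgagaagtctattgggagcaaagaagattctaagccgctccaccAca
SAUR21: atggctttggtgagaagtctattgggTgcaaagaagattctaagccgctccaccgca
SAUR22: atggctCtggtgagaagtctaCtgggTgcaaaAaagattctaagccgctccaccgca
SAUR23: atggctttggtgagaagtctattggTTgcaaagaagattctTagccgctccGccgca
SAUR24: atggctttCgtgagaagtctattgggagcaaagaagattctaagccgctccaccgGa
Between 1 and 4 of these bases differ from the commonest in each gene. Over whole transcribed spans, 12 of the 41 genes share a 50-base window with another place on the 5 chromosomes, up to 33.9% of windows in SAUR67, and 3 (SAUR62, SAUR63 and SAUR67) share a 100-base window. Reads mapping to several places had been left out by the authors, so values of these genes rest on their distinct parts. Counting ignored strand, and SAUR61, SAUR63, SAUR64, SAUR8 and SAUR13 overlap a gene on the other strand, as SAUR7 does by 4 bases, while SAUR6 and SAUR7 overlap by 176 bases on the same strand. Values of these 7 genes may hold reads of the partner, or may lack reads that lay on both genes.

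The 300 bases before each gene's start were searched on both strands for short motifs that PIFs and auxin or brassinosteroid factors are known to bind. The PIF-binding letters CACATG were in the windows of 27 of the 41 genes and in 13.2% of the 32546 windows of all genes. The G-box CACGTG was in 0 of the 41 and in 6.49% of all windows. The auxin response element letters TGTCTC were in 7 of the 41 and 13.1% of all, and TGTCGG in 2 and 4.82%. The brassinosteroid element CGTGCG was in 0 of the 41 and 1.69% of all windows. Windows of 3 genes with CACATG are printed because these genes fell in WT light (SAUR14 rose in hy1 at 24 h), and that of SAUR32, which holds none of the 5 motifs, because its level was not called changed. Capitals mark CACATG and TGTCTC on either strand, and each window reads toward its gene's start.
SAUR66 (chr1:10320711-10321010, plus strand): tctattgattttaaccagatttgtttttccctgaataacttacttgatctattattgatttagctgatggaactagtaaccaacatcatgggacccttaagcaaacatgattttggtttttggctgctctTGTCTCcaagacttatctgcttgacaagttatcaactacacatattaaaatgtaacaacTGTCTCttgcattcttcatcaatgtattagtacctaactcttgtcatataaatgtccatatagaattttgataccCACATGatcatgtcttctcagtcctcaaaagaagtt
SAUR14 (chr4:18125560-18125859, minus strand): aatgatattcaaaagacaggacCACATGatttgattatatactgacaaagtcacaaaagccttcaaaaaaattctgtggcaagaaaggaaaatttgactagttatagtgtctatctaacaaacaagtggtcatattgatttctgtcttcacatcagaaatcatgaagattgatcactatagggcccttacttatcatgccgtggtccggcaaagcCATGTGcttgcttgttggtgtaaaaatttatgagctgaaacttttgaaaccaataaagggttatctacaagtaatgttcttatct
SAUR15 (chr4:18125757-18126056, plus strand): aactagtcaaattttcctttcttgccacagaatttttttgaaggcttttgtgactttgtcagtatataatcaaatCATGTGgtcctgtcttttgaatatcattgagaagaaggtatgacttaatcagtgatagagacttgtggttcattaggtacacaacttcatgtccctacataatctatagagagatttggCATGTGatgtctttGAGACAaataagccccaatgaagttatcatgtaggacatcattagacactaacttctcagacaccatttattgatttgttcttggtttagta
SAUR32 (chr2:19180405-19180704, plus strand): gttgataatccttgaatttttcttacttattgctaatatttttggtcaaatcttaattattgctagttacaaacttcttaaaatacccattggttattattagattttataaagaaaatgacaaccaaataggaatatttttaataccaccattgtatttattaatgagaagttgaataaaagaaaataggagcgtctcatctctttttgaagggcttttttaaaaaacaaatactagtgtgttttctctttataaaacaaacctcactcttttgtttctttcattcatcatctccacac
SAUR14 and SAUR15 point away from each other across 497 bases, so that their windows share 103 bases and 1 CACATG site. The 4 genes whose highest mean was in hy1 darkness (SAUR32, SAUR36, SAUR72 and SAUR76) had neither CACATG nor TGTCTC in their windows. All 4 are single genes. Of the 10 single genes 4 had CACATG and 0 had TGTCTC, against 23 and 7 of the 31 clustered genes. Of the 35 genes called lower in WT at 12 h, 24 had CACATG, and of the 3 tested but not called 1 had it. SAUR10, SAUR16 and SAUR50 fell in WT light and had no CACATG. A match describes the letters of a window and shows no binding.

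Libraries held 38469946 to 59905064 counts, of which 2680 to 16136 fell on the 41 genes. HY1 itself was read in every hy1 library, at 31.6 to 36.3 CPM in darkness, 20.2 to 24.3 at 12 h and 18.4 to 19.4 at 24 h, against 42.4 to 47.9, 23.4 to 34.0 and 33.9 to 43.2 in WT. CPM is the usual depth-scaled count, here on library totals adjusted by the TMM method. The log2 fold change of HY1 in hy1 was -0.39 ± 0.13 (SE) at 0 h (adjusted p = 0.041), -0.34 ± 0.13 at 12 h (adjusted p = 0.06), then -1.05 ± 0.13 at 24 h (adjusted p = 6.6e-05). These p-values, like all below, are from edgeR's quasi-likelihood test with Benjamini-Hochberg adjustment over all tested genes, and a change is said to be called where the adjusted p is under 0.05. A group of 3 WT libraries (replicates 2 and 3 of 12 h, replicate 3 of 24 h) stood apart from the other 15: genes with over 400 and up to 800 exon bases, the size of many SAUR genes, took 1.36% to 1.83% of their counts, against 1.93% to 2.86% elsewhere. Many calls below change without these 3 libraries. Both values are given for some of these only, so a result given once may also change without them.

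In WT darkness 38 of the 41 genes had a mean of at least 1 CPM, and 10 of at least 10 CPM. After 12 h and after 24 h in light 9 WT genes were left at 1 CPM or more, and 7 and 6 had no read in any of the 3 libraries. In hy1 the numbers at or above 1 CPM were 32 in darkness, 14 at 12 h and 24 at 24 h. The median level of the 41 was 6.05 CPM in WT darkness, 0.18 at 12 h and 0.155 at 24 h, and in hy1 2.01, 0.709 and 1.13. Summed over the 41 genes, levels were 328 ± 33.7 CPM (SD, n = 3) in WT darkness, 78.6 ± 13.1 at 12 h and 89.4 ± 8.18 at 24 h, and 223 ± 7.89, 119 ± 10.1 and 128 ± 16.4 in hy1. All but 4 genes had their highest mean in WT darkness, and of the 38 tested, 34 had their lowest in WT light. The order WT darkness, hy1 darkness, both hy1 light groups, both WT light groups held for the means of 25 of the 38.

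**Figure D1:**
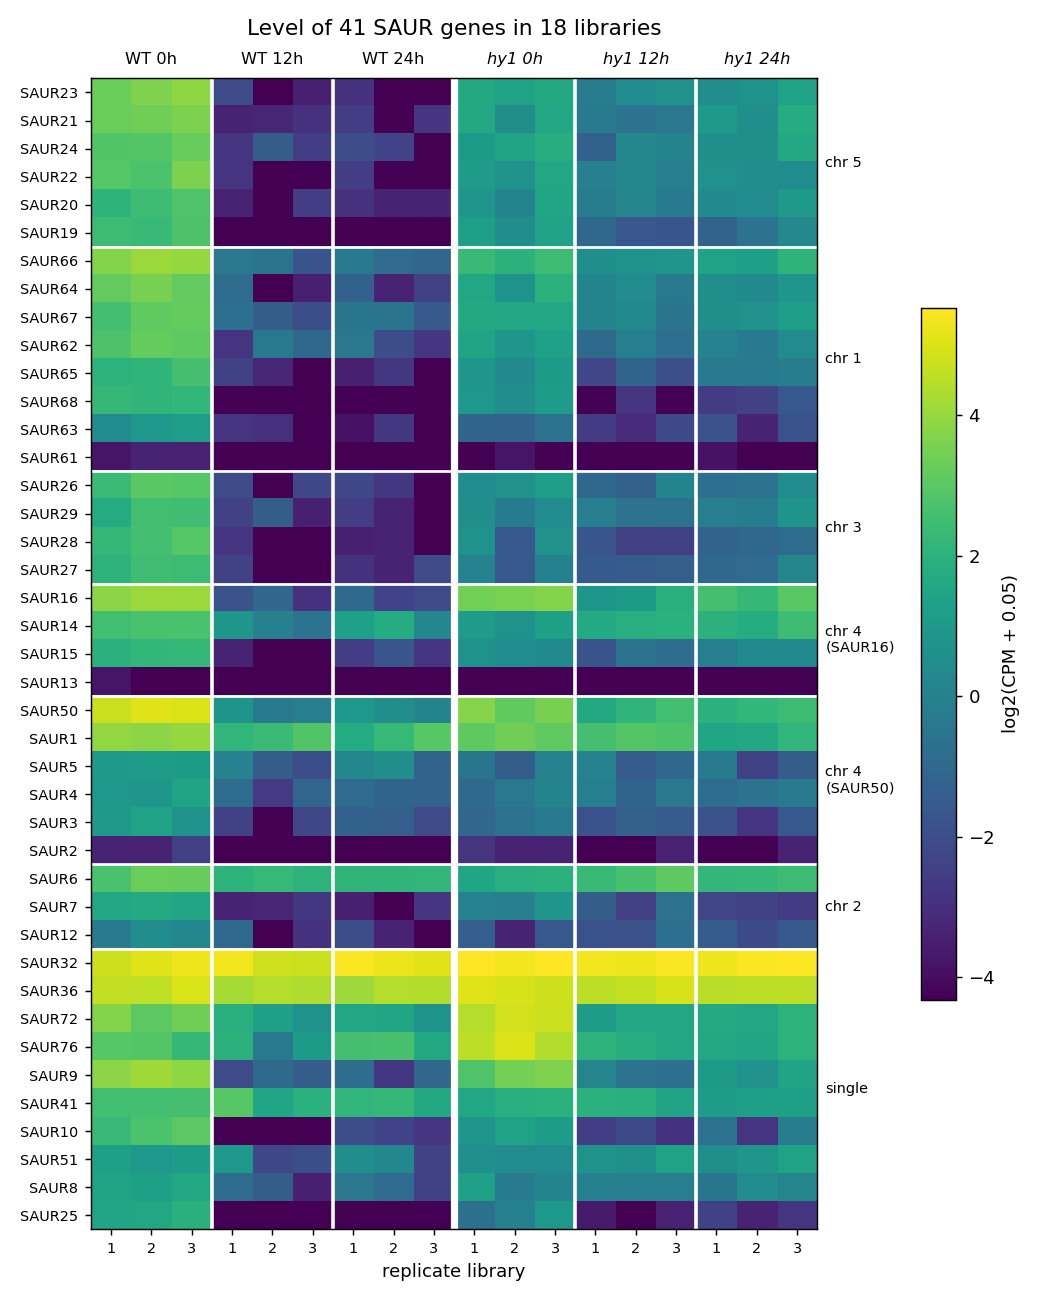
Level of each of the 41 SAUR genes (rows, grouped by chromosomal cluster) in each of the 18 libraries (columns, 3 replicates per group), as log2(CPM + 0.05). Most clustered genes are bright in WT 0 h, dark in the 6 WT light libraries and intermediate in hy1, while SAUR32 and SAUR36 stay bright in all 18. Among the clustered genes, SAUR2, SAUR13 and SAUR61 are dark throughout, and SAUR1 and SAUR6 keep part of their level in WT light.

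SAUR2, SAUR13 and SAUR61 did not pass the filter on low counts, with 22, 1 and 7 reads in all 18 libraries together. SAUR61 had 5 of its 7 reads and SAUR2 10 of its 22 in WT darkness, and SAUR2 had 8 in hy1 darkness. These 3 were at most at a mean of 0.0762 CPM in any group and were not tested. SAUR13 and SAUR61 overlap an antisense gene by 433 and 342 bases, so their low counts may in part reflect reads lost there. Per exon length, the 5 highest genes in WT darkness were SAUR32 (36.7 ± 6.03 RPKM, CPM per kilobase of exon), SAUR50 (34.3 ± 4.35), SAUR36 (22.5 ± 3.68), SAUR1 (20.4 ± 1.12) and SAUR9 (16.2 ± 2.09). SAUR32 and SAUR50 did not differ in that group beyond their spread. At 12 h in WT the order was SAUR32 (35.4 ± 7.94 RPKM), SAUR36 (17.0 ± 1.39), SAUR1 (7.66 ± 2.01) and SAUR41 (5.5 ± 3.07), the last pair again within their spread.

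In WT hypocotyls 35 of the 38 tested genes fell by 12 h in light and none rose, where 53.6% of all 20955 tested genes were called, 25.3% as lower. Against 0 h at 24 h, 33 fell and none rose (47.7% of all genes called, 23.1% lower). The median log2 fold change of the 38 was -4.92 at 12 h and -5.1 at 24 h, unchanged with the genes that had no read put at their bound, beside 0.01 and 0.02 for all genes. Without the 3 libraries that stood apart 32 fell at 12 h, when SAUR5 (-1.04, adjusted p = 0.24), SAUR12 (-1.24, adjusted p = 0.21) and SAUR76 (-0.72, adjusted p = 0.072) were not called. In bulk RNA, fewer cells of a type and less RNA per cell cannot be told apart.

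The SAUR19 cluster, whose proteins are the ones best known to inhibit PP2C.D phosphatases and to lengthen hypocotyl cells, fell in WT light in all 6 members. Their summed level was 50.8 ± 9.1 CPM in WT darkness, 0.405 ± 0.055 at 12 h and 0.317 ± 0.255 at 24 h. SAUR19 read 5.3, 5.1 and 6.76 CPM in the WT dark libraries and 0 in all 6 WT light libraries. The light groups lay wholly below the dark one, and SAUR19, set at a floor of 3 counts summed over the 3 libraries, was at least 246-fold lower at 12 h and at least 252-fold lower at 24 h. In hy1 SAUR19 stood at 2.37, 1.37 and 2.51 CPM in darkness, 0.452, 0.269 and 0.26 at 12 h, and 0.395, 0.63 and 1.2 at 24 h. Every hy1 light library held more SAUR19 than any WT light library, by at least 14.6-fold at 12 h and 31.6-fold at 24 h over the group. Floors and counting intervals cover counting error only. The mates of a pair had each been counted as a read. The intervals here and below are thus narrower, and the folds given as at least are higher, than counts of pairs would give.

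SAUR21 (AT5G18030) went from 9.75, 10.5 and 11.8 CPM in WT darkness to 0.0468, 0.0536 and 0.0824 at 12 h and 0.122, 0 and 0.0953 at 24 h. The dark and light libraries did not overlap (log2 fold change -7.36 ± 0.53 at 12 h, adjusted p = 1.7e-08). In hy1 it read 3.01, 1.42 and 2.97 CPM in darkness, 0.807, 0.627 and 0.692 at 12 h, and 1.96, 1.44 and 3.34 at 24 h. The 12 h libraries were the lowest and the 24 h ones lay at about the level of darkness, and SAUR21 rose between 12 h and 24 h in hy1 (1.65 ± 0.38, adjusted p = 0.018). SAUR20, SAUR22, SAUR23 and SAUR24 had log2 fold changes of -8.01 to -5.49 in WT at 12 h and of -1.72 to -1.0 in hy1, all called. Over all 18 libraries, all 6 genes of the cluster fell in both genotypes at 12 h. In hy1 the calls of SAUR20, SAUR22 and SAUR23 were lost in 5, 6 and 1 of 13 alternative fits (other scaling, filter, test or libraries). At 24 h all 6 genes were called lower in WT and 1 (SAUR19) in hy1.

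The chromosome 1 cluster holds SAUR63, which promotes elongation of hypocotyls, petioles and stamen filaments, and its close relatives. All 7 tested genes of it fell in WT at 12 h and at 24 h. SAUR66 (AT1G29500) read 12.9, 16.6 and 15.7 CPM in WT darkness, 0.702, 0.643 and 0.247 at 12 h, and 0.733, 0.497 and 0.429 at 24 h. The light libraries lay far below the dark ones (-4.84 ± 0.33 at 12 h, adjusted p = 1.1e-08). The hy1 libraries held 4.97, 3.92 and 5.29 CPM in darkness, 1.45, 1.61 and 1.69 at 12 h and 2.47, 2.34 and 4.24 at 24 h. Each hy1 light library was above each WT light library and below each WT dark one, and SAUR66 fell in hy1 at 12 h (-1.58 ± 0.29, adjusted p = 0.00032).

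SAUR68 (AT1G29490) fell in both genotypes. It read 4.61, 4.27 and 4.56 CPM in WT darkness and 0 in all 6 WT light libraries, at least 192-fold lower at 12 h and at least 196-fold lower at 24 h. Its hy1 levels were 1.85, 1.37 and 2.11 CPM in darkness, 0, 0.0896 and 0 at 12 h, and 0.119, 0.135 and 0.277 at 24 h. The hy1 libraries at 12 h were at or next to 0 and those at 24 h a little above. SAUR68 had the largest fall in hy1 among the named genes, -5.92 ± 0.68 at 12 h (adjusted p = 2.1e-05). At 24 h it stood at -3.32 ± 0.53 (adjusted p = 0.00033), and the genotypes' falls were not called different at 12 h (adjusted p = 0.11). Reads of SAUR63 itself may come in part from its antisense partner, or be lost where the 2 genes overlap. SAUR63 fell from 1.76 ± 0.428 CPM to 0.058 ± 0.0507 in WT at 12 h (-4.93 ± 0.72, adjusted p = 3.7e-05). In hy1 it fell from 0.459 ± 0.11 to 0.118 ± 0.0531 (-1.94 ± 0.66, adjusted p = 0.025).

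SAUR26 to SAUR29, known for natural variation in growth responses to warmth, all fell in WT at both times. SAUR27 (AT3G03840) read 4.11, 5.56 and 5.27 CPM in WT darkness, 0.14, 0 and 0 at 12 h, and 0.0814, 0.0497 and 0.191 at 24 h. Again no light library reached a dark one (-6.65 ± 0.76 at 12 h, adjusted p = 2.8e-06). In hy1 the values were 0.994, 0.275 and 0.96 CPM in darkness, 0.291, 0.314 and 0.346 at 12 h, and 0.435, 0.495 and 1.08 at 24 h. The hy1 groups overlapped, and SAUR27 was not called in hy1 at either time (-1.23 ± 0.59, adjusted p = 0.11, and -0.15 ± 0.56, adjusted p = 0.86). With the 3 deviating WT libraries left out its fall at 12 h was called (-1.22 ± 0.45, adjusted p = 0.028). In hy1 at 12 h SAUR26 and SAUR28 fell and SAUR29 was not called.

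SAUR14, SAUR15 and SAUR16 lie side by side on chromosome 4. SAUR16, like SAUR50, is known for opposite light responses in cotyledons and hypocotyl, and SAUR15 (SAUR-AC1) for promoting lateral and adventitious roots downstream of ARFs. SAUR16 read 14.1, 16.5 and 16.3 CPM in WT darkness, 0.234, 0.428 and 0.0824 at 12 h, and 0.468, 0.149 and 0.191 at 24 h. It was thus nearly gone from all 6 light libraries (-6.02 ± 0.44 at 12 h, adjusted p = 2.2e-08). Libraries of hy1 read 10.8, 11.7 and 13.1 CPM in darkness, 1.79, 2.02 and 3.55 at 12 h, and 6.12, 4.64 and 7.95 at 24 h. The 3 hy1 groups did not overlap: SAUR16 fell by 12 h (-2.28 ± 0.34, adjusted p = 4.8e-05) and rose from 12 h to 24 h (1.35 ± 0.33, adjusted p = 0.027). In hy1 darkness it was not called against WT (-0.4 ± 0.31, adjusted p = 0.39).

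SAUR15 had 568 reads in the 3 WT dark libraries and 2 in the 3 at 12 h, a ratio of 283 (95% exact counting interval 78 to 2340), and 20 reads at 24 h. Its rise from 12 h to 24 h in WT (adjusted p = 0.024) rested on these 2 and 20 reads, a ratio of 9.79 (2.38 to 86.4), and was not called when the 3 WT light libraries that stood apart were left out (adjusted p = 0.32). In hy1 the gene went from 1.38 ± 0.163 CPM in darkness to 0.463 ± 0.199 at 12 h and 1.13 ± 0.211 at 24 h. The fall at 12 h was called (-1.6 ± 0.38, adjusted p = 0.0028) and the difference at 24 h was not (-0.29 ± 0.36, adjusted p = 0.55).

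SAUR14 (AT4G38840) moved in opposite directions in the genotypes. It read 5.73, 6.36 and 6.41 CPM in WT darkness, 1.78, 0.937 and 0.618 at 12 h, and 2.44, 3.33 and 1.14 at 24 h. All WT light libraries were below the dark ones, and the libraries that stood apart held the lowest values at both times. SAUR14 fell in WT at 12 h (-2.47 ± 0.37, adjusted p = 4.6e-05) and 24 h (-1.42 ± 0.35, adjusted p = 0.0034). In hy1 it read 2.08, 1.56 and 2.39 CPM in darkness, 3.23, 3.63 and 3.89 at 12 h, and 4.01, 3.38 and 5.51 at 24 h. Every hy1 light library was above every hy1 dark one, and the rise was called at 24 h (1.1 ± 0.35, adjusted p = 0.021) but not at 12 h (0.83 ± 0.35, adjusted p = 0.067). Without the 3 libraries that stood apart the rise at 12 h was called too (0.84 ± 0.2, adjusted p = 0.0023).

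In the other chromosome 4 cluster SAUR50 read 26.3, 33.8 and 31.9 CPM in WT darkness, 1.64, 0.75 and 0.886 at 12 h, and 1.85, 1.39 and 1.0 at 24 h. Light libraries lay wholly below dark ones (-4.81 ± 0.32 at 12 h, adjusted p = 8e-09). In hy1 SAUR50 read 13.2, 8.59 and 11.4 CPM in darkness, 3.08, 4.32 and 5.73 at 12 h, and 3.95, 4.55 and 5.32 at 24 h. The fall in hy1 was called at 12 h (-1.34 ± 0.27, adjusted p = 0.00086) and 24 h (-1.26 ± 0.27, adjusted p = 0.0015), and all hy1 light libraries stayed above all WT light ones.

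SAUR1 (AT4G34770), its neighbour, kept more of its level. It read 15.3, 14.0 and 15.5 CPM in WT darkness, 4.42, 5.14 and 7.25 at 12 h, and 3.26, 4.85 and 7.79 at 24 h. It fell in WT at both times (-1.41 ± 0.26, adjusted p = 0.00033, and -1.5 ± 0.26, adjusted p = 0.00021). The hy1 libraries held 8.45, 10.5 and 8.6 CPM in darkness, 6.05, 7.28 and 6.88 at 12 h, and 2.69, 3.06 and 4.4 at 24 h. The hy1 groups did not overlap, and the fall from 12 h to 24 h was the only one called there among the 38 genes over all 18 libraries (-0.99 ± 0.27, adjusted p = 0.041), with the difference at 12 h against darkness at -0.45 ± 0.26 (adjusted p = 0.18). That difference was called with the 3 deviating WT libraries left out (-0.45 ± 0.17, adjusted p = 0.032). SAUR3 and SAUR4 also fell in WT at both times. SAUR5 fell at 12 h (-2.01 ± 0.65, adjusted p = 0.017) and stood at -1.06 ± 0.62 at 24 h (adjusted p = 0.17).

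SAUR6, on chromosome 2, was the other gene with called changes of opposite sign, although 176 of its bases are shared with SAUR7. It read 6.37, 9.83 and 9.32 CPM in WT darkness, 4.07, 4.79 and 4.08 at 12 h, and 4.27, 4.32 and 4.45 at 24 h. The WT light libraries were close together and below the dark ones (-0.98 ± 0.19 at 12 h, adjusted p = 0.00058). Its hy1 levels were 2.82, 3.66 and 3.84 CPM in darkness, 5.04, 6.27 and 8.35 at 12 h, and 4.58, 4.66 and 5.44 at 24 h. All hy1 light libraries were above the dark ones, and SAUR6 was the only gene of the 38 that rose in hy1 at 12 h (0.93 ± 0.2, adjusted p = 0.0012). At 24 h the difference was 0.51 ± 0.2 (adjusted p = 0.0507), and it was called (adjusted p = 0.041) when the 3 deviating WT libraries were left out. SAUR7 fell in both genotypes at 12 h (-5.35 ± 0.57 in WT, -1.8 ± 0.46 in hy1).

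Among the single genes, SAUR9 (AT4G36110), whose protein also inhibits PP2C.D phosphatases, read 13.9, 17.5 and 14.3 CPM in WT darkness, 0.187, 0.482 and 0.329 at 12 h, and 0.529, 0.0994 and 0.429 at 24 h. In hy1 the values were 6.93, 11.1 and 12.2 CPM in darkness, 1.07, 0.627 and 0.562 at 12 h, and 2.0, 1.51 and 2.63 at 24 h. Light libraries lay below dark ones in both genotypes (-5.52 ± 0.43 in WT and -3.72 ± 0.38 in hy1 at 12 h, adjusted p = 4.8e-08 and 1.1e-06). In hy1 it rose from 12 h to 24 h (1.42 ± 0.38, adjusted p = 0.041).

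SAUR10 (AT2G18010), which responds to brassinosteroid and shade, read 5.09, 6.55 and 8.16 CPM in WT darkness, 0 in all 3 libraries at 12 h, and 0.204, 0.149 and 0.0953 at 24 h. It was at least 285-fold lower at 12 h than in darkness, and at least 6.53-fold higher at 24 h than at 12 h over the group. That rise was called (adjusted p = 0.028), on 20 reads at 24 h, and was not called when the 3 WT light libraries that stood apart were left out (adjusted p = 0.23). Libraries of hy1 read 1.7, 2.54 and 2.15 CPM in darkness, 0.129, 0.179 and 0.0865 at 12 h, and 0.593, 0.09 and 0.83 at 24 h. It fell in hy1 at 12 h (-4.0 ± 0.56, adjusted p = 4.9e-05) and its 24 h libraries were uneven. SAUR10 and SAUR15 were the 2 of 38 genes called between 12 h and 24 h in WT, both higher, where 9.08% of all genes were called (3.67% higher and 5.41% lower). Leaving out 1 library of these groups gave 0 to 8 called genes, none when WT 12 h replicate 2 or 3 or WT 24 h replicate 2 was left out, and 8 when it was WT 12 h replicate 1.

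SAUR25 had 409 reads in WT darkness and 0 in WT light, at least 136-fold lower at 12 h. SAUR8, which overlaps an antisense gene by 594 bases, fell in WT at both times (-3.2 ± 0.62 at 12 h, adjusted p = 0.00048) and was not called in hy1. SAUR51 read 1.85, 0.161 and 0.206 CPM at 12 h in WT, and its 2 low libraries were those that stood apart. It was not called in WT at 12 h (-1.49 ± 0.71, adjusted p = 0.089) or 24 h (-1.2 ± 0.7, adjusted p = 0.17). Without the 3 libraries that stood apart the values were -0.17 ± 0.35 at 12 h (adjusted p = 0.73) and -0.7 ± 0.28 at 24 h, then called lower (adjusted p = 0.047).

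A few single genes changed little in light over all 18 libraries. SAUR32 (AT2G46690), whose overexpression opens the apical hook, read 27.5, 32.7 and 38.3 CPM in WT darkness, 39.9, 28.3 and 26.9 at 12 h, and 44.0, 37.7 and 33.6 at 24 h. In hy1 it read 45.1, 40.8 and 46.0 CPM in darkness, 40.7, 38.8 and 44.2 at 12 h, and 38.4, 44.4 and 45.5 at 24 h. The groups overlapped within each genotype, and SAUR32 was called in none of the 11 comparisons. Without the 3 libraries that stood apart it was called higher in WT at 24 h (0.32 ± 0.12, adjusted p = 0.037) and higher in hy1 than WT in darkness (0.42 ± 0.11, adjusted p = 0.0065).

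SAUR36 (AT2G45210), an auxin- and gibberellin-responsive gene tied to hypocotyl elongation and leaf senescence, read 24.3, 23.8 and 31.5 CPM in WT darkness, 18.3, 21.6 and 20.2 at 12 h, and 16.8, 21.3 and 20.7 at 24 h. The WT light libraries were all below the dark ones by a small margin (-0.41 ± 0.13 at 12 h, adjusted p = 0.017). The hy1 libraries held 32.6, 30.8 and 27.6 CPM in darkness, 23.2, 25.4 and 30.3 at 12 h, and 22.6, 23.3 and 23.0 at 24 h. It fell in hy1 at 24 h (-0.4 ± 0.13, adjusted p = 0.023), with -0.21 ± 0.13 at 12 h (adjusted p = 0.22).

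SAUR41 (AT1G16510), of a subfamily that promotes hypocotyl cell expansion, read 5.85, 5.89 and 6.16 CPM in WT darkness, 7.82, 2.73 and 3.83 at 12 h, and 4.36, 4.65 and 3.14 at 24 h. Its 12 h libraries lay on both sides of darkness, with the pair that stood apart the lower ones. Its hy1 levels were 2.89, 3.6 and 3.82 CPM in darkness, 3.91, 3.65 and 2.64 at 12 h, and 2.09, 2.39 and 2.37 at 24 h. SAUR41 was called in no comparison over all 18 libraries. Without the 3 libraries that stood apart it was lower in hy1 at 0 h, 12 h and 24 h (-0.8 ± 0.15, -1.2 ± 0.2 and -0.98 ± 0.17, adjusted p = 0.00067, 0.0011 and 0.00063). In that fit it also fell within hy1 at 24 h, against 0 h (-0.59 ± 0.16, adjusted p = 0.0054) and against 12 h (-0.58 ± 0.16, adjusted p = 0.022).

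**Figure D2:**
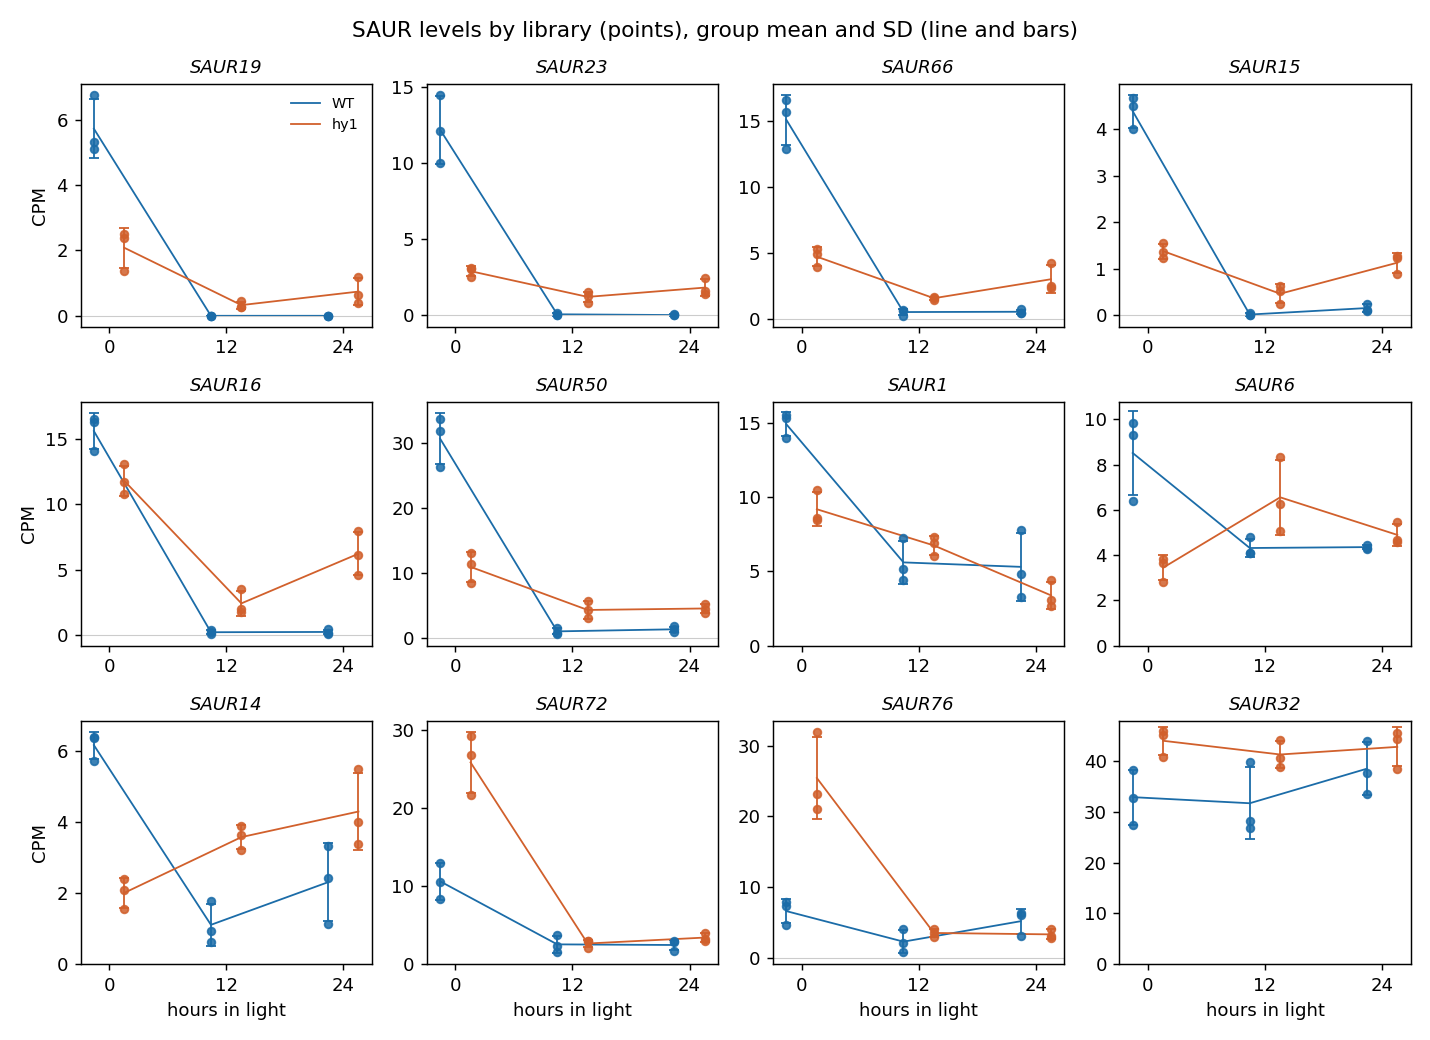
CPM of 12 SAUR genes at 0, 12 and 24 h in light, with 1 point per library, lines through group means and bars of 1 SD (n = 3), WT in blue and hy1 in orange, drawn side by side. SAUR19 is at 0 in all 6 WT light libraries, SAUR14 and SAUR6 are higher in hy1 light than in hy1 darkness, SAUR72 and SAUR76 are highest in hy1 darkness, and SAUR32 stays between 26.9 and 46.0 CPM.

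In hy1 fewer of the genes fell in light. At 12 h 24 of the 38 genes fell and 1 rose (44.2% of all genes called, 21.3% lower and 22.9% higher), with a median of -1.46. At 24 h 13 fell and 1 rose (40.5% called, 20.1% lower and 20.4% higher), with a median of -0.73. The share of members called at 24 h, 36.8%, was below that of all genes. Without the 3 libraries that stood apart, none of them from hy1, 25 were called, 23 of them lower. In that fit 57% of all genes were called. The gained calls included SAUR62 to SAUR67 and SAUR23, SAUR26 and SAUR28. Between 12 h and 24 h SAUR9, SAUR16 and SAUR21 rose and SAUR1 fell in hy1 (4.89% of all genes called, 2.35% higher and 2.54% lower). These 4 calls are fragile to single libraries: 3 genes were called without hy1 24 h replicate 2 and 1 gene without any other of the 6. Without the 3 libraries that stood apart 10 rose and 2 fell, where 16.2% of all genes were called.

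The difference between the light responses was tested as an interaction of genotype and light. At 12 h 26 of the 38 genes were called, 25 of them with a smaller fall or a rise in hy1 (13.5% of all genes called, 6.73% in that direction and 6.8% in the other). At 24 h 27 were called, 26 of them in that direction (8.67%, 5.18% and 3.49%). The median interaction was 3.39 at 12 h and 3.62 at 24 h on the log2 scale, or 3.23 and 3.48 with genes absent from WT light at their bound. All 6 genes of the SAUR19 cluster and all 4 of SAUR26 to SAUR29 were called at both times over all 18 libraries. So were SAUR14, SAUR15 and SAUR16. Leaving out the 3 libraries that stood apart leaves 1 WT library at 12 h. The 12 h calls of SAUR4 (1.89), SAUR10 (7.23) and SAUR28 (3.34) were then lost, and SAUR1 (1.31) and SAUR76 (-2.13) were gained. SAUR15 and SAUR14 then gave 4.86 and 2.63 at 12 h. The chromosome 1 cluster had 5 of 7 called at 12 h and 7 of 7 at 24 h.

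**Figure D3:**
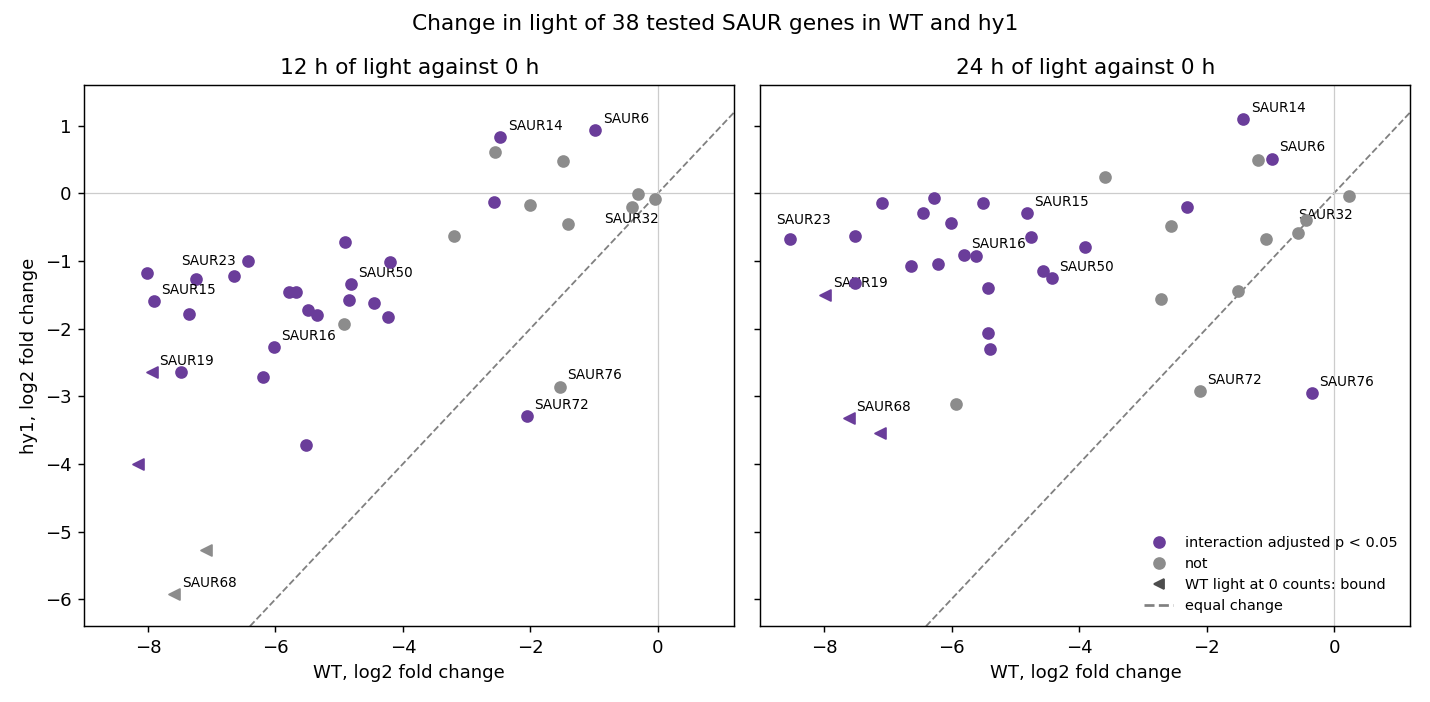
Log2 fold change in light against darkness in WT (horizontal) and hy1 (vertical) for the 38 tested genes at 12 h and 24 h, with purple for a called interaction, triangles for genes with no WT read in light drawn at their bound, and a dashed line of equal change. Most genes lie above the line, with SAUR14 and SAUR6 above 0 in hy1, while SAUR72 and SAUR76 lie below the line.

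For single genes the interaction at 12 h was 6.31 ± 0.76 for SAUR15 (adjusted p = 0.00014, on 2 reads in WT at 12 h), 3.75 ± 0.54 for SAUR16 (adjusted p = 0.00051) and 3.47 ± 0.4 for SAUR50 (adjusted p = 0.00011). The genes of opposite direction gave 1.91 ± 0.28 (SAUR6, adjusted p = 0.0005) and 3.31 ± 0.51 (SAUR14, adjusted p = 0.00083). At 24 h SAUR23 gave 7.86 ± 0.78 (adjusted p = 1.8e-05), on 4 reads in WT at 24 h that all lay in 1 library. At that time SAUR16 gave 4.88 ± 0.53 (adjusted p = 3.4e-05) and SAUR15 4.52 ± 0.56 (adjusted p = 0.00012). Each of these genes fell less, or rose, in hy1.

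The starting levels differed too. In darkness 26 genes were lower in hy1 and 2 higher (24.6% of all genes called, 12.4% lower and 12.2% higher), with a median of -1.53. The median tested gene stood in hy1 darkness at 34.5% of its WT dark level. The largest fall among genes of at least 1 CPM was that of SAUR27 (-2.74 ± 0.55, adjusted p = 0.0019), whose hy1 dark libraries were all below the WT ones. Over all 18 libraries, all genes of the clusters on chromosomes 5, 1 (of those tested) and 3 were lower in hy1 darkness. This call was lost in 7 of 13 alternative fits for SAUR68, 4 for SAUR63 and SAUR64, 3 for SAUR24 and 2 for SAUR65. It was lost in 1 for SAUR19 and SAUR62. Leaving out hy1 0 h replicate 2 left 18 called genes, with 16.4% of all genes called. Leaving out hy1 0 h replicate 1 left 19, with 19.2% of all genes called. The dark level to which hy1 light libraries were compared was thus itself lower for these genes.

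In light the order was the reverse. At 12 h 21 of the 38 genes were higher in hy1 than in WT and none lower (32.7% of all genes called, 14.9% higher), with a median of 1.83, or 1.62 with genes absent from WT at their bound. At 24 h 20 were higher and none lower (20.6% called, 10.5% higher), with a median of 1.9, or 1.88. At both times all 6 genes of the SAUR19 cluster were higher in hy1: SAUR20 by 3.83 ± 0.55 and 4.55 ± 0.54, SAUR21 by 3.46 ± 0.57 and 4.84 ± 0.52, and SAUR23 by 3.92 ± 0.6 and 5.79 ± 0.68. In WT light SAUR20, SAUR21 and SAUR23 had only 4 to 10 reads per group, with SAUR23 lowest at 24 h. SAUR16 was higher by 3.35 ± 0.44 (adjusted p = 9.4e-05) and 4.48 ± 0.42 (adjusted p = 4.3e-06), and SAUR15 at 24 h by 2.86 ± 0.44 (adjusted p = 0.00037). The hy1 levels in light remained low on an absolute scale, with a summed SAUR19 cluster of 4.96 ± 0.649 CPM at 12 h and 9.7 ± 3.11 at 24 h.

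**Figure D4:**
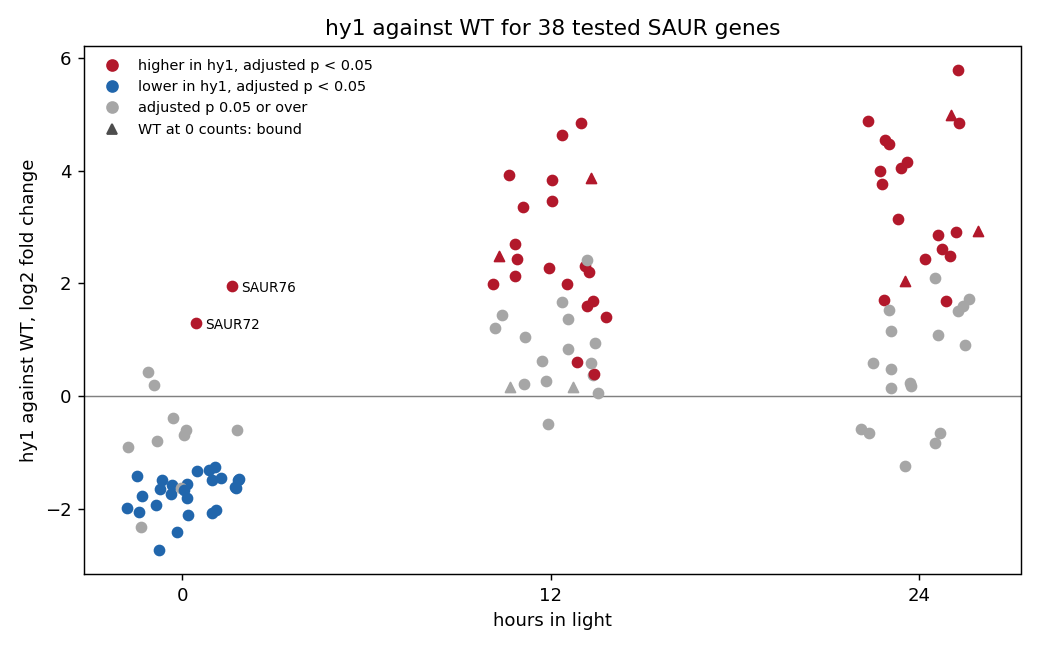
Log2 fold change of hy1 against WT for the 38 tested genes at 0, 12 and 24 h, with red for called higher, blue for called lower, grey for not called, and triangles for genes with no WT read drawn at their bound. Most genes are below 0 in darkness and above 0 at both light times, with SAUR72 and SAUR76 the 2 called above 0 in darkness.

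The count at 12 h depended on which libraries were kept, as did the share of all genes called. Leaving out the 3 libraries that stood apart leaves 1 WT library at 12 h. In that fit SAUR16 gave 3.36, SAUR50 1.41, SAUR65 0.84 and SAUR67 0.78, and SAUR41 gave -1.2. The calls of SAUR6, SAUR7, SAUR10, SAUR26, SAUR27, SAUR36, SAUR64, SAUR65 and SAUR67 were lost. Without WT 12 h replicate 3 alone 13 genes were called (19.1% of all genes), and without WT 12 h replicate 1 alone 27 (52.2%). Without hy1 12 h replicate 2 or 3 alone 15 were called each time (22.5% and 22.2% of all genes). At 24 h 24 were called without the 3 libraries, 21 of them higher, where 33.6% of all genes were called.

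SAUR72 and SAUR76 ran against the rest. SAUR72 (AT3G12830), of the SAUR41 subfamily, read 12.9, 8.29 and 10.5 CPM in WT darkness and 21.6, 29.2 and 26.7 in hy1 darkness. The dark libraries of the genotypes did not overlap (1.29 ± 0.27, adjusted p = 0.0026). In light it read 3.7, 2.36 and 1.57 CPM at 12 h and 2.93, 2.78 and 1.67 at 24 h in WT, and 2.07, 2.93 and 2.96, then 3.22, 2.97 and 4.03, in hy1. The light libraries of the genotypes overlapped at 12 h, and neither time was called between genotypes. SAUR72 fell in both genotypes at 12 h, by -2.06 ± 0.29 in WT and -3.29 ± 0.29 in hy1, and the interaction at 12 h, -1.23 ± 0.39, was just past the threshold (adjusted p = 0.0497).

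SAUR76 (AT5G20820), whose protein interacts with ethylene receptors, read 7.8, 7.29 and 4.63 CPM in WT darkness and 23.2, 31.9 and 21.0 in hy1 darkness. Each hy1 dark library was above each WT one (1.95 ± 0.4, adjusted p = 0.0023). In WT light it read 3.98, 0.75 and 2.02 CPM at 12 h and 6.03, 6.26 and 3.12 at 24 h, and in hy1 4.1, 3.43 and 2.9, then 3.06, 2.72 and 4.06. SAUR76 fell in hy1 at 24 h (-2.95 ± 0.42, adjusted p = 3.7e-05), was not called in WT at 24 h (-0.35 ± 0.4, adjusted p = 0.49), and its interaction there was -2.6 ± 0.57 (adjusted p = 0.0087). Between genotypes at 24 h it was not called (-0.65 ± 0.4, adjusted p = 0.28), but was lower in hy1 with the 3 deviating WT libraries left out (-0.91 ± 0.24, adjusted p = 0.0089).

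The other genes of the pathway were taken from lists. Their counts stand beside the shares of all genes given above: in WT at 12 h 53.6% called (25.3% lower, 28.3% higher), and in hy1 against WT 32.7% called at 12 h (14.9% higher, 17.8% lower) and 24.6% in darkness. Of 37 other SAUR genes 22 were tested, and in WT at 12 h 12 fell and 2 rose, with a median of -1.47 against -4.92 for the 38 genes above. Those with the smallest p were SAUR35 (-2.94 ± 0.21), SAUR52 (-4.64 ± 0.35), SAUR57 (-6.63 ± 0.81) and SAUR11, which had no read in WT light. In hy1 against WT at 12 h 5 of the 22 were higher and 1 lower, and in darkness 6 were higher and 2 lower.

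Of the 9 PP2C.D phosphatases, the targets of SAUR proteins, 8 fell in WT at 12 h and none rose. APD9 fell by 3.34 ± 0.19 (adjusted p = 1.8e-09) and APD7 by 2.87 ± 0.45 (adjusted p = 7.4e-05) on the log2 scale, and AT3G17090 and AT3G51370 by 1.14 ± 0.13 and 0.65 ± 0.098. In hy1 at 12 h 7 fell, and 6 were higher in hy1 than in WT at that time, by at most 0.87 ± 0.18 (APD9). Of 10 tested plasma membrane H+-ATPases, the pumps that drive acid growth, 6 fell in WT at 12 h and none rose, a called share near the 53.6% of all genes. AHA4 fell by 1.67 ± 0.27, AHA11 by 0.86 ± 0.19, AHA8 by 0.76 ± 0.12 and AHA3 by 0.64 ± 0.16. In hy1 against WT at 12 h AHA3 (0.89 ± 0.16) and AHA8 (0.45 ± 0.12) were higher and none was lower.

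Of 20 upstream factors and receptors of the auxin, brassinosteroid and PIF routes, 11 fell and 3 rose in WT at 12 h. PRE1 and PRE5, growth-promoting helix-loop-helix proteins, fell by 7.48 ± 0.55 and 5.58 ± 0.47, and TMK1, a receptor-like kinase that activates H+-ATPases, by 2.53 ± 0.12. PIF7, a PIF of shade responses, rose in WT (2.71 ± 0.23, adjusted p = 1.4e-07) and in hy1 (2.47 ± 0.26, adjusted p = 1.6e-06). In hy1 against WT at 12 h 5 were higher and 9 lower, with PRE5 at 2.31 ± 0.5 and TMK1 at 0.81 ± 0.11 higher and PIF7 at -2.36 ± 0.23 lower.

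Markers of other cells also moved. The 3 shoot meristem markers, summed by library, ran from 18.5 to 27.5 CPM in WT darkness, 4.87 to 10.3 at 12 h and 3.24 to 8.75 at 24 h, with WUS at 0 at 24 h. In hy1, at the same times, they summed to 14 to 15.9, 16.9 to 24.1 and 15.2 to 19.6 CPM, with CLV3 at 0 in darkness. The 6 stomatal lineage markers ran from 4 to 7.82, 4.59 to 16 and 4.17 to 7.65 CPM in WT and 1.36 to 2.3, 13.2 to 23 and 4.98 to 10.2 in hy1. The 3 root meristem markers ran from 0.761 to 1.13, 1.12 to 1.92 and 2.5 to 3.76 CPM in WT and 3.64 to 4.73, 2.33 to 3.55 and 4.01 to 6.93 in hy1. The 5 root hair markers summed to at most 1.38 CPM in any library, and 1 to 3 of EXPA7, EXPA18, COBL9 and RHD6 were at 0 in each group. The part of these cells in the SAUR results was not tested.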

How the data were processed

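Poly-A RNA of hypocotyls was extracted with TRIzol and made into TruSeq libraries, per the labels' protocols. Deposited whole-number counts per gene were used. Per the file headers, the authors ran featureCounts 2.0.3 with a TAIR10 annotation, ignoring strand and leaving out reads at several places. Mates were counted one by one: in each library 73.2% to 78.4% of counts in the range 1 to 10 are even. STAR 2.7.8a, StringTie 2.1.3 and HTSeq are named in the submitters' processing notes with no role. Deposited FPKM values were not used.

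With R 4.3.3 and edgeR 4.0.16, 1 quasi-likelihood model of 6 group means was fitted to the 18 libraries (38469946 to 59905064 counts, TMM factors 0.971 to 1.07) on the 20955 genes that passed filterByExpr. Two-sided p-values of each of the 11 comparisons were adjusted over all tested genes (Benjamini-Hochberg). The test was also run on simulated data with changes placed only in genes with many reads, so that run does not cover genes with few reads. SE is the log2 fold change divided by the root of F. CPM used TMM-scaled totals, and RPKM divided these by exon length. For a group with no read the floor was 3 counts in its 3 libraries together. Counting intervals are exact at 95% only where each mate is taken as an independent read. Alternatives were DESeq2 1.42.0 size factors or Wald test, other filters and thresholds, a replicate block, only the groups compared, and libraries left out.

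The 41 loci and all lists were chosen with earlier results of these data known. Names and sequences come from RefSeq (TAIR10.1), where all 41 loci have the start and end of the deposited table. Each library's value is given for the 12 members of highest mean CPM and for the member of largest rise and fall per comparison among called members of at least 1 CPM. Of each pathway list, up to 4 genes with the smallest adjusted p in WT at 12 h or in hy1 against WT at 12 h were named. One list of cell type markers is not reported here.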

Additional observations from a re-analysis of the deposited data

Results flagged for a closer look

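The light response differed between WT and hy1 by the test of the interaction of genotype and light, in edgeR's quasi-likelihood model with adjustment over all tested genes, for 26 of the 38 tested SAUR genes at 12 h and 27 at 24 h. Among the named genes the difference at 12 h (hy1 minus WT, log2) was 6.31 for SAUR15, 3.75 for SAUR16, 3.47 for SAUR50, 3.31 for SAUR14, 1.91 for SAUR6 and -1.23 for SAUR72. At 24 h it was 7.86 for SAUR23 (on 4 reads in WT at 24 h), 4.88 for SAUR16, 4.52 for SAUR15 and -2.6 for SAUR76. Groups of 3 libraries are too small for a search for single outlying libraries.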

How the results depend on the processing

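Under the alternatives of scaling, test, filter, block and libraries at the same threshold no call of a SAUR gene reversed, and 180 of 235 called results kept their call in each one run for them. Counts of called genes moved by over 1.5 times in 5 comparisons. WT at 24 h against 12 h (2 called) gave 4 with DESeq2's Wald test, 0 with only the groups compared, at adjusted p under 0.01 or without the 3 libraries that stood apart, and 0 to 8 with 1 library left out. For hy1 at 24 h against 12 h (4 called) these gave 9, 7, 0, 12 and 1 to 3. For hy1 at 24 h against 0 h (14) only the groups compared gave 24, leaving out the 3 libraries 25, and leaving out 1 library 11 to 13. For hy1 against WT at 0 h (28) adjusted p under 0.01 gave 16 and leaving out 1 library 18 to 27. For hy1 against WT at 12 h (21) only the groups compared gave 9, adjusted p under 0.01 gave 10, and leaving out 1 library 13 to 27. The share of all genes called moved as well. In hy1 at 24 h against 0 h it went from 40.5% to 58.4% with only the groups compared and to 57% without the 3 libraries. In hy1 against WT at 12 h it went from 32.7% to 7.45% with only the groups compared. The cause was not tested. Leaving out 1 library gave 33 to 36 and 32 to 33 for WT at 12 h and 24 h, 19 to 25 for hy1 at 12 h, 19 to 21 for hy1 against WT at 24 h, and 23 to 31 and 25 to 28 for the interactions. The interactions of SAUR4 at 24 h and of SAUR9, SAUR62 and SAUR72 at 12 h were lost in 11, 11, 11 and 13 of 19 alternatives. Same-numbered libraries showed no shared deviation in the median (45 pairs, median correlation 0.0192, range -0.286 to 0.584). For the 90 other pairs the median was -0.00846 (range -0.735 to 0.518). The labels do not pair the samples, and a median over all pairs cannot exclude pairing in some groups. With the replicate block 35 genes were called in WT at 12 h, 21 in hy1 against WT at 12 h and 25 in the interaction at 12 h. Where 1 WT 12 h library was left, it was assumed to vary like the other groups. Genes with a few reads in WT light set a limit on the precision of their folds.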
